A study of Arabidopsis thaliana with 66 samples.

Results

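Roots of the Arabidopsis thaliana stock line N9416 were compared between phosphate-free medium to which nano-hydroxyapatite, a calcium phosphate in nanoparticle form, had been added (nanoP) and the same medium without it (-P). The comparison used every RNA-seq library that the sample labels assign to this line and to either medium, 3 for nanoP and 3 for -P, which is 6 of 66 libraries in the series. The series holds 22 groups of 3 root libraries from Col-0, the wild type, and from the lines N8507, N8508 and N9416, grown with or without thorium (Th) for 14 days. The labels do not name the gene mutated in any line, so no targeted transcript could be checked, and the labels do not say how many plants stand behind a library or whether replicates came from separate plants. P-values therefore measure only the spread between these libraries, which may be technical. Other groups used are untreated N9416 roots on full medium rather than phosphate-free medium (mock), and N9416 on -P+Th and on nanoP+Th, which share the thorium exposure. The nanoP and -P groups of Col-0 and of N8508 were used as well.

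Plant roots meet a lack of phosphate with a transcriptional programme run by the MYB factor PHR1 and its relatives. With ample phosphate, SPX-domain proteins that sense inositol pyrophosphates hold PHR1 back, and without it PHR1 binds a motif called P1BS in the promoters of its targets. The programme raises phosphate uptake, releases phosphate from organic compounds, replaces phospholipids with galactolipids and sulfolipids, and is linked to the uptake of nitrate, sulfate and metals.

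The promoters below carry the P1BS motif and belong to genes chosen after their values were seen, to show each role in the programme. Other motif-bearing genes are not printed, among them PAP25, PAP14 and PHT1;2, which were also far lower on nanoP, and G3PP5, which was higher with a log2 difference of 0.31. Each line shows 60 bases, 5′ to 3′ on the gene's strand, with P1BS (GNATATNC, where N is any base, which is its own reverse complement) in capitals. Sequences and positions are those of the RefSeq copy of the TAIR10.1 genome, matched to the files by locus. SPX3, chr2:18606294-18606353 (+), and AT4, chr5:894522-894581 (+), belong to signalling. PHT1;7, chr3:20251039-20251098 (-), is a phosphate transporter gene. PS2, chr1:27466532-27466591 (-), and PAP23, chr4:7958982-7959041 (-), encode phosphatases. MGD2, chr5:6896403-6896462 (+), GDPD1, chr3:350040-350099 (-), and PLDZ2, chr3:1634988-1635047 (+), act in lipid remodelling. PAP8, chr2:399450-399509 (-), carries the motif and yet was higher on nanoP.
SPX3: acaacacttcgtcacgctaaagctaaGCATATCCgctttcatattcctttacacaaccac
AT4: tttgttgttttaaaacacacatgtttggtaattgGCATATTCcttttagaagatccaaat
PHT1;7: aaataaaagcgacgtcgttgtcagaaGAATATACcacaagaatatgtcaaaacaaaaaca
PS2: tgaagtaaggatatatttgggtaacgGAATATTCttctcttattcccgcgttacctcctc
PAP23: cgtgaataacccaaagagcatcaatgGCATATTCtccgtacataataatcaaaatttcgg
MGD2: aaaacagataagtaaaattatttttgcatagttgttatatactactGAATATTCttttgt
GDPD1: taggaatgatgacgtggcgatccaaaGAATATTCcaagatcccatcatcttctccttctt
PLDZ2: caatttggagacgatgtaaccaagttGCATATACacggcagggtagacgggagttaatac
PAP8: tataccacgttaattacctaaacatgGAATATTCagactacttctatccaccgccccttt

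The motif was searched on both strands in the 250 bases before each annotated gene start. It was present in 20 of 62 promoters of the phosphate lists (32.3%), against 5.4% of all 33054 promoters. It was most frequent among genes of phosphate scavenging enzymes (8 of 17) and of membrane lipid remodelling (7 of 18). The distance from its first base to the gene start was 14 bases in MGD2 and 217 bases in PS2. Of the 19 motif-bearing list members that were tested, 16 were lower on nanoP and 2 higher, with a median log2 difference of -4.34. Among 41 members without it, 29 were lower and 5 higher, with a median of -2.45. Over all genes with a promoter, the motif was found in 8.8% of the 2971 lower on nanoP, in 4.7% of the 2972 higher and in 5.0% of the 13703 that did not pass, and in 23.8% of the 168 that were lower by more than 8-fold. IPS1, SPX1, PHT1;4 and PECP1, which were all far lower on nanoP, had no match in this window. The phosphate lists were compiled from known roles, PHR1 targets among them, so their share of the motif is no independent evidence. The shares over all genes include these list members, such as SPX3, PS2 and PAP23 among those lower by more than 8-fold. They are therefore not independent of the lists.

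The 6 libraries held 11.9 to 14.83 M assigned reads and at least 1 read for 21076 to 21317 genes. Levels are given in CPM, reads of a gene scaled to a common library size, which compare libraries but not genes of unequal length. Correlations of log2 CPM were 0.9941 to 0.9949 among -P libraries, 0.9916 to 0.9945 among nanoP libraries and 0.9733 to 0.9812 between the groups. Markers of the meristem, root cap, epidermis, endodermis and stele were all detected in these libraries, which carry the root label. Green tissue markers were detected too, except LHCB1.1, which had no read in any of these libraries. The summed level of all 8 was 24.82 to 34.56 CPM on -P and 32.77 to 38.54 CPM on nanoP. Most of it came from RCA, at 19.64 to 24.2 CPM on -P and 20.83 to 27.61 CPM on nanoP. PSBR was higher on nanoP (log2 difference 0.98, edgeR adjusted p = 0.0109). In whole roots, fewer cells of a type and less RNA per cell cannot be told apart.

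Of 19762 genes tested, 2994 (15.2%) were higher and 2977 (15.1%) lower on nanoP than on -P at an adjusted p under 0.05 (edgeR quasi-likelihood F-test, Benjamini-Hochberg adjustment over all genes tested). The calls together made up 30.2% of genes, and 43.8% of genes had no overlap between both groups of 3 libraries. Counts of list members for nanoP against -P are to be read beside the shares of 15.2% higher and 15.1% lower. Large differences lay mostly on one side. Among called genes, 169 were lower by more than 8-fold and 28 were higher by more than 8-fold, while the median absolute log2 difference of all calls was 0.64. Scaling by total assigned reads in place of trimmed means gave 5361 higher and 2213 lower genes (70.8% higher, against 50.1%), and moved the median log2 difference of all genes from 0.03 to 0.157. No called gene was called in the opposite direction under this scaling.

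Several genes of phosphate signalling were among those that fell furthest with nano-hydroxyapatite. Of 11 tested, 6 were lower on nanoP and 3 higher, and their median log2 difference was -2.01, against 0.03 over all genes. IPS1 (AT3G09922), a non-coding RNA that sequesters the microRNA miR399, stood at 473.5, 424.6 and 370.2 CPM on -P and at 0.156, 1.242 and 0.0687 CPM on nanoP. Mock roots held 0.5778, 0 and 0 CPM, so nanoP and mock libraries overlapped while all -P libraries were far above both. The log2 difference of IPS1 was -9.82 (SE 0.44, adjusted p = 4.5e-11). Its relative AT4 (AT5G03545) went from 1006, 996.5 and 859.3 CPM to 14.04, 15.82 and 23.42 CPM, a log2 difference of -5.74 (SE 0.21).

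The PHR1 inhibitors of the SPX family differed in direction. SPX1 (AT5G20150) was at 1000, 898.4 and 910.5 CPM on -P and at 11.08, 10.52 and 9.342 CPM on nanoP, a log2 difference of -6.51 (SE 0.17, adjusted p = 4.9e-14). All nanoP libraries also lay below the mock values of 24.27, 22.68 and 21.43 CPM (log2 difference -1.15, adjusted p = 8.2e-05). SPX3 (AT2G45130) fell from 97.49, 91.0 and 90.74 CPM to 0.2341, 0.4969 and 0.5495 CPM, and SPX2 fell by 2.36 on the log2 scale. SPX4 (AT5G15330), whose protein is degraded when phosphate is short, rose instead, from 24.82, 28.16 and 32.22 CPM to 40.96, 43.73 and 47.47 CPM (log2 difference 0.63, adjusted p = 5.0e-04). The regulators themselves did not pass, with log2 differences of 0.20 for PHR1 (adjusted p = 0.0897) and 0.25 for PHL1 (adjusted p = 0.143).

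The ubiquitin ligase components that remove phosphate transporters moved the other way. PHO2 (AT2G33770), the conjugating enzyme that miR399 silences, stood at 403, 446.5 and 394.8 CPM on -P and at 1601, 1464 and 1397 CPM on nanoP. This rise of 1.84 on the log2 scale (SE 0.13, adjusted p = 1.4e-08) took it above all mock libraries, which held 1267, 1332 and 1036 CPM. NLA, the ligase that acts on PHT1 transporters, rose by 0.48 (SE 0.12, adjusted p = 0.00536) and remained below mock by a log2 difference of -0.47 (adjusted p = 0.0112). PHF1, which helps PHT1 proteins leave the endoplasmic reticulum, fell by 2.01 (SE 0.13).

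**Figure D1:**
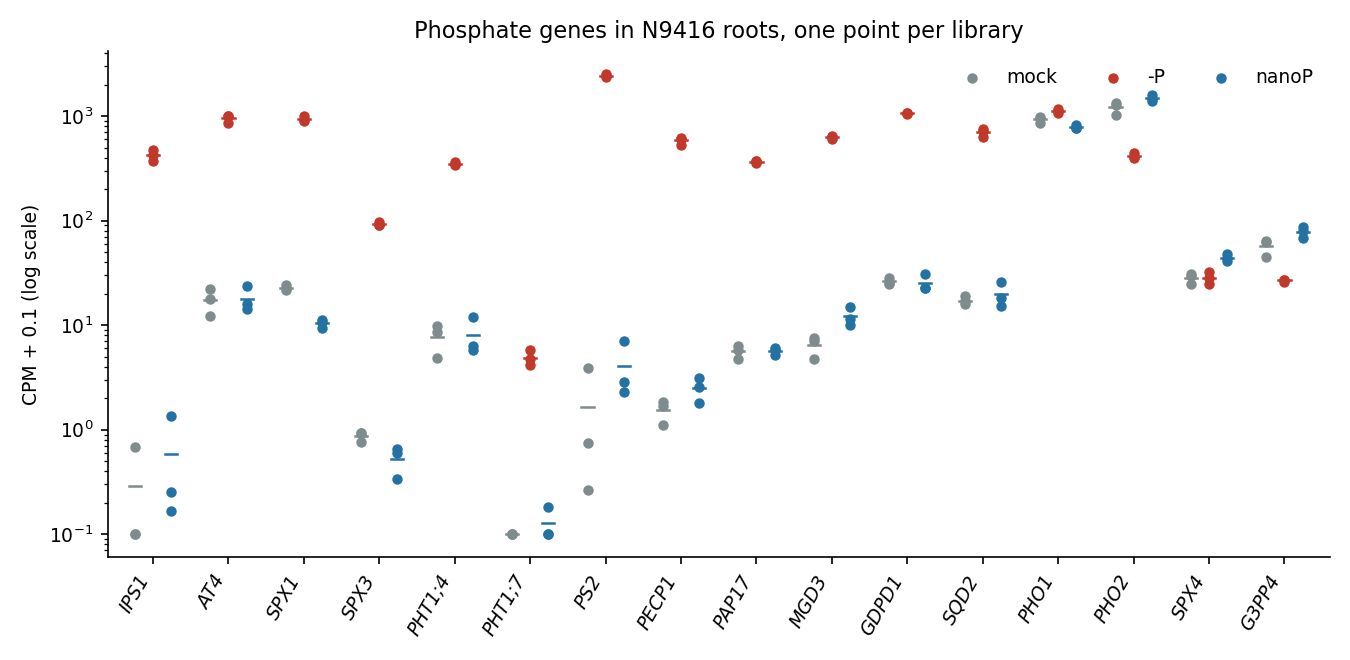
Levels of 16 phosphate genes in each N9416 library on mock, -P and nanoP, as CPM plus 0.1 on a log axis, with a bar at each group mean. The nanoP points lie near or within the mock points for most genes, while PHO2, SPX4 and G3PP4 are higher on nanoP than on -P and PHO1 is lower by less than any of the other falling genes.

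Phosphate transporters fell with few exceptions: of 16 tested, 13 were lower and 2 higher on nanoP, with a median log2 difference of -4.23. PHT1;4 (AT2G38940), a proton-coupled importer at the root surface, was at 348.5, 338.1 and 366.5 CPM on -P and at 5.695, 11.84 and 6.251 CPM on nanoP. The nanoP values overlapped those of mock, 9.657, 4.722 and 8.603 CPM, and the log2 difference from -P was -5.48 (SE 0.28, adjusted p = 2.3e-10). PHT1;1, another importer, fell from 1178, 1053 and 1224 CPM to 153, 246.7 and 233.3 CPM and ended below mock by a log2 difference of -0.68 (adjusted p = 0.00248). PHT1;1, PHT1;2 and PHT1;3 are near-identical copies whose reads may be split among them, and the latter 2 fell by 5.02 and 5.26. PHT1;5 stood at 7.499, 8.693 and 11.34 CPM on -P and had no read on nanoP, so it was at least 120.7-fold lower with a floor of 3 reads over the group. PHT1;7 had 5.644, 4.075 and 4.685 CPM on -P and a single nanoP library above 0, at 0.0828 CPM.

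Genes of phosphate export and glycerol-3-phosphate transport varied in size and direction of change. PHO1 (AT3G23430), which loads phosphate into the xylem, stood at 1070, 1110 and 1167 CPM on -P and at 763.7, 828.1 and 767.4 CPM on nanoP, with no overlap (log2 difference -0.50, SE 0.09, adjusted p = 3.0e-04). In the fit of all 66 libraries the PHO1 difference did not pass (adjusted p = 0.11). Its homologue PHO1;H1 fell by 4.88 on the log2 scale, and AT1G63010, a major facilitator protein with an SPX domain, fell by 0.82. Among glycerol-3-phosphate permeases, G3PP1 fell from 767, 722.2 and 765.5 CPM to 9.986, 12.59 and 14.15 CPM, while G3PP4 (AT4G17550) rose from 25.67, 27.26 and 27.12 CPM to 68.81, 78.84 and 87.1 CPM. The log2 differences were -5.94 (SE 0.18) for G3PP1 and 1.55 (SE 0.13) for G3PP4, the only gene of the list with a rise above 1.

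Enzymes that free phosphate from organic compounds fell widely. Of 16 tested among 17 listed, 13 were lower and 1 higher, with a median log2 difference of -2.79. PS2 (AT1G73010), a phosphatase with phosphocholine and phosphoethanolamine among its substrates, went from 2542, 2374 and 2394 CPM to 2.184, 6.956 and 2.748 CPM, a log2 difference of -9.28 (SE 0.51, adjusted p = 5.1e-10). Its mock values were 3.797, 0.6481 and 0.1654 CPM, which the nanoP values overlapped. The related PECP1 (AT1G17710) fell from 621.7, 530.9 and 602.5 CPM to 1.716, 2.484 and 3.022 CPM. Purple acid phosphatases differed among themselves. PAP17 (AT3G17790) went from 369.3, 354.1 and 372.1 CPM to 6.008, 5.135 and 5.702 CPM. PAP23 went from 17.7, 16.39 and 18.08 CPM to no read, at least 228.7-fold lower. PAP12 and PAP22 fell by 2.48 and 3.70 on the log2 scale. PAP26 had a log2 difference of -0.17 (adjusted p = 0.199). PAP8 rose from 59.38, 47.45 and 51.21 CPM to 82.78, 76.6 and 90.4 CPM (log2 difference 0.66, adjusted p = 1.1e-04).

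Membrane lipid remodelling genes, which make galactolipids and sulfolipids or break down phospholipids, mostly fell. Of 17 tested among 18 listed, 13 were lower and 1 higher, with a median log2 difference of -3.02. MGD3 (AT2G11810), a galactolipid synthase, was at 627.6, 605.4 and 644.7 CPM on -P and at 9.986, 11.43 and 14.77 CPM on nanoP (log2 difference -5.69, SE 0.22), which was still above mock by 0.93 (adjusted p = 0.0109). SQD2 (AT5G01220), which completes sulfolipid synthesis, fell from 754.4, 627.5 and 723.6 CPM to 18.1, 25.67 and 15.04 CPM. GDPD1 (AT3G02040), a glycerophosphodiester phosphodiesterase, fell from 1078, 1046 and 1076 CPM to 30.74, 22.69 and 22.67 CPM. Groups did not overlap for any of these genes. The phospholipases PLDZ2 and NPC4 fell by 3.11 and 3.08, and the galactolipid synthases DGD1 and DGD2 by 0.80 and 1.46. PLDZ1 and PAH2, close relatives of responsive genes, had log2 differences of 0.12 and 0.05 and did not pass. The single gene that rose was AT1G73600, annotated as a methyltransferase, at 43.68, 53.79 and 50.47 CPM on -P, 55.32, 98.71 and 94.25 CPM on nanoP and 206, 214 and 138.9 CPM on mock (log2 difference from -P 0.75, adjusted p = 0.021).

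Many nitrogen uptake genes rose. Of 24 nitrate and ammonium genes tested, 12 were higher and 4 lower on nanoP and 8 did not pass, with a median log2 difference of 0.6. DUR3, a urea transporter, rose from 170.4, 134.2 and 158.1 CPM to 1368, 1374 and 1545 CPM, above the mock values of 857, 895.9 and 883.1 CPM. Its log2 differences were 3.21 from -P (SE 0.10, adjusted p = 3.5e-13) and 0.70 from mock (adjusted p = 8.0e-05). NRT2.5, a high-affinity nitrate transporter of nitrogen-starved roots, rose from 70.51, 56.23 and 85.15 CPM to 491.4, 746.2 and 795.6 CPM (log2 difference 3.26, SE 0.26). The near-identical transporter genes NRT2.1 and NRT2.2 rose by 0.93 and 1.97, and their partner protein NRT3.1 by 1.54. Of the ammonium transporters, AMT1;3 went from 92.77, 83.85 and 95.84 CPM to 306.9, 327.9 and 375.8 CPM, while AMT1;1 and AMT1;2 rose by 0.81 and 0.92. The glutamate dehydrogenase genes parted, since GDH3 rose from 30.38, 33.69 and 30.66 CPM to 168.4, 149.9 and 178.8 CPM and GDH2 fell by 1.3. ASN1, an asparagine synthetase, fell by 1.59 to 11.31, 23.19 and 15.11 CPM. The dual nitrate transporter and sensor NRT1.1 fell by 0.44 (adjusted p = 0.024), and the nitrate reductase genes NIA1 and NIA2 had log2 differences of -0.17 and -0.42 that did not pass.

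Of 9 tested genes for repressors of nitrogen uptake, 6 were lower on nanoP and none was higher, with a median log2 difference of -1.54. AT3G25790, a myb-like factor related to HRS1, fell from 132, 162.4 and 195.3 CPM to 2.809, 1.822 and 1.58 CPM, a log2 difference of -6.30. A second relative, AT1G68670, fell from 248.8, 253.5 and 284.1 CPM to 23.64, 20.54 and 25.62 CPM. HRS1 itself, a factor that links phosphate and nitrate signals, fell by 1.54 from 211.7, 241 and 260.6 CPM to 86.37, 70.64 and 87.79 CPM. BT1 and BT2, scaffold proteins that limit nitrate uptake, fell by 1.03 and 1.96. LBD37, LBD38 and LBD39, which repress nitrate-responsive genes, did not pass against -P (log2 differences -0.20, 0.15 and -0.42) and stood above mock by 1.34, 2.18 and 1.46.

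Many sulfur assimilation genes fell, several to below their level in untreated roots. Of 15 sulfate genes tested, 11 were lower on nanoP than on -P and none was higher, with a median log2 difference of -1.37, and 7 were also lower than on mock. Scaling by total reads gave 2 higher and 11 lower. SULTR1;2, the main root sulfate importer, stood at 62.55, 50.07 and 61.89 CPM on -P, at 2.575, 11.1 and 6.869 CPM on nanoP and at 30.05, 20.55 and 26.88 CPM on mock. Its log2 differences were -3.09 from -P (SE 0.28, adjusted p = 2.7e-07) and -1.92 from mock. APR1, an adenosine phosphosulfate reductase, fell from 288.8, 309.7 and 250.9 CPM to 45.17, 65.09 and 56.6 CPM, below mock values of 170.9, 138.3 and 183.1 CPM. APR2 and APR3 fell by 0.70 and 1.37, and the ATP sulfurylase APS1 by 1.75. All 7 tested markers of low sulfur among 10 listed were lower, with a median of -1.45. LSU2 fell from 28.45, 34.59 and 25.23 CPM to 2.653, 2.484 and 2.198 CPM. SDI1, which holds back glucosinolate synthesis under sulfur shortage, fell from 11.6, 14.49 and 12.08 CPM to 0.8582, 0.9938 and 0.893 CPM.

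Indole glucosinolate genes, whose products contain sulfur, fell. All 8 tested were lower on nanoP than on -P, with a median log2 difference of -1.26, and 6 were lower than on mock. The genes lower than on -P numbered 7 under scaling by total reads. They also numbered 7 whenever a library other than -P replicate 3 was left out. CYP79B2, which converts tryptophan to its oxime, stood at 406.2, 395.3 and 337.5 CPM on -P and at 26.76, 50.19 and 55.02 CPM on nanoP. The mock values of 179.4, 153.1 and 186.5 CPM lay between the groups with no overlap (log2 differences -3.11 from -P, SE 0.20, and -1.97 from mock). CYP79B3, which catalyses the same step, fell from 88.68, 107.3 and 101.8 CPM to 10.53, 17.81 and 16.62 CPM. CYP83B1 fell by 1.56, and the regulators MYB51 and MYB34 by 0.89 and 0.57.

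Several copper economy genes stood on nanoP between their levels on -P and on mock. Of 11 tested, 7 were higher and 2 lower on nanoP, with a median log2 difference of 0.75. FRO5, a reductase for copper uptake, was at 53.96, 46.81 and 39.95 CPM on -P, at 537.6, 538.5 and 609 CPM on nanoP and at 1135, 1172 and 1287 CPM on mock. Its log2 difference from -P was 3.58 (SE 0.33, adjusted p = 4.8e-07) and from mock -1.09 (adjusted p = 0.0214). COPT2, a copper importer, rose from 3.015, 2.716 and 2.63 CPM to 24.03, 24.35 and 39.57 CPM, below mock values of 55.8, 55 and 70.07 CPM. The superoxide dismutases moved oppositely by metal. FSD1, the iron enzyme used when copper is short, rose by 1.59 from 131.3, 114.5 and 63.7 CPM to 317.4, 269.2 and 347.6 CPM. CSD1, a copper and zinc enzyme, fell by 1.09 from 246.9, 231.4 and 235.2 CPM to 98.62, 127.8 and 109.6 CPM, and CSD2 fell by 0.67. Both stayed above mock, by 2.09 for CSD1 and 2.46 for CSD2. SPL7, the copper-response factor, rose by 0.23 (adjusted p = 0.0346).

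Iron genes split. Of 21 iron acquisition genes tested among 26 listed, 7 were higher and 2 lower, with a median log2 difference of 0.45. Scaling by total reads gave 10 higher and 1 lower, and the fit of all 66 libraries 5 higher and 1 lower. The higher genes also numbered 5 without -P replicate 2 or nanoP replicate 3. IRT1, the root iron importer, went from 14.92, 3.984 and 7.973 CPM to 32.85, 40.91 and 58.46 CPM, which spanned a range inside that of mock (22.12, 13.33 and 63.03 CPM). The log2 difference was 2.28 (SE 0.55, adjusted p = 0.00493). FIT, the factor that activates IRT1, rose by 0.87 (adjusted p = 0.0138). NAS1, a nicotianamine synthase, rose by 3.33 (SE 0.37), from 0.9277, 0.7244 and 1.808 CPM to 9.908, 10.6 and 14.77 CPM. The metal importer NRAMP1 fell by 1.00 from 213.7, 200.1 and 234.2 CPM to 105.7, 109.7 and 108.9 CPM, below all mock libraries. FER1, an iron storage ferritin, had a log2 difference of -0.22 (adjusted p = 0.36), and of 7 coumarin genes tested 2 were lower. Of 13 zinc and other metal genes tested among 15 listed, 4 were higher and 3 lower, with 2 higher without -P replicate 3 or nanoP replicate 3. HMA2, which loads zinc into the xylem, fell by 3.71 (SE 0.27), from 26.44, 41.74 and 45.53 CPM to 3.043, 2.402 and 3.16 CPM, a log2 difference of -1.67 from mock.

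Jasmonate genes fell part of the way. Of 11 synthesis genes tested among 12 listed, 8 were lower and 1 higher (median log2 difference -0.89). Of 16 response genes, 8 were lower and none higher (median -0.60). Without nanoP replicate 1, 5 response genes were lower and 1 higher, and the fit of all 66 libraries gave 5 lower. LOX3, a lipoxygenase of jasmonate synthesis, fell from 23.27, 19.92 and 17.1 CPM to 2.887, 6.956 and 4.396 CPM and stayed above mock values of 0.908, 0.3704 and 0.3309 CPM. LOX4 fell from 128, 103.2 and 113.3 CPM to 25.28, 37.6 and 31.32 CPM. JAR1, which conjugates jasmonate to isoleucine, rose by 0.63. JAZ10, a repressor that jasmonate itself induces, fell by 1.74 from 33.94, 43.65 and 30.16 CPM to 10.06, 14 and 8.381 CPM, which lay above mock by 1.86. MYC2, the leading jasmonate factor, had a log2 difference of -0.37 (adjusted p = 0.205) and stood above mock by 1.49.

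Defence and detoxification genes that changed were mostly lower. Of 11 defence genes tested among 13 listed, 5 were lower and none higher (median -1.22). FMO1, which makes the immune signal N-hydroxypipecolic acid, fell by 2.35 from 168.6, 149 and 157.7 CPM to 19.19, 45.63 and 28.71 CPM. ICS1, of salicylic acid synthesis, fell by 1.22 and the factor WRKY70 by 1.56. Of 22 glutathione transferase genes tested among 24 listed, 12 were lower and 5 higher (median -0.64). GSTF9 fell by 1.64 from 1088, 1031 and 923.2 CPM to 297.7, 333.5 and 346 CPM, while GSTU2 rose by 1.98 from 3.788, 3.894 and 2.63 CPM to 18.8, 8.613 and 13.26 CPM. Tandem copies in this family may share reads. Of 11 ethylene genes 3 were lower, and of 11 oxidative stress genes 1 was higher, AOX1A by 0.47, and RBOHD was lower, with a log2 difference of -0.68. Over all genes 15.2% were higher and 15.1% lower, shares that the oxidative stress counts do not exceed.

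Cell division genes were modestly but widely lower. All 12 DNA replication genes were lower on nanoP (median log2 difference -0.67), as were 8 of 16 mitosis genes, with none higher (median -0.54). MCM3, a replicative helicase subunit, fell by 1.02 from 29.07, 27.62 and 27.95 CPM to 15.68, 17.23 and 9.136 CPM. CDKB2;2, a mitotic kinase, fell by 1.1 from 21.49, 21.82 and 21.7 CPM to 11.55, 10.1 and 8.793 CPM. These differences were small enough to depend on the fit, since 9 replication genes were lower under scaling by total reads, 7 without nanoP replicate 3 and 5 in the fit of all 66 libraries. Lower mitosis genes numbered 4 in that fit, 4 without -P replicate 3 and 5 without nanoP replicate 3. The summed level of 3 meristem markers was 8.504 to 10.85 CPM on -P and 9.617 to 15.65 CPM on nanoP. PLT1 among them was higher (log2 difference 0.69, adjusted p = 0.0136), while PLT2 and WOX5 did not pass. Root cap markers summed to 3.984 to 7.113 CPM on -P and 7.958 to 16.81 CPM on nanoP. Stele markers summed to 295.3 to 349.0 CPM and 305.6 to 347.0 CPM, with SHR lower by 0.47. The part of cell types in these differences was not tested. Of 11 ribosome biogenesis genes, 5 were higher and none lower (median 0.28), among them the fibrillarin FIB1 by 0.53 and SWA1 by 0.54. The higher genes numbered 7 under scaling by total reads, 2 in the fit of all 66 libraries, 2 without -P replicate 2 or -P replicate 3, and 3 without nanoP replicate 1 or nanoP replicate 3.

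Genes of the Casparian strip fell. Of 7 Casparian strip genes tested among 8 listed, 6 were lower (median -0.86). CASP2, a scaffold of the strip, fell by 1.18 from 39.58, 49.71 and 61.07 CPM to 17.63, 25.76 and 22.74 CPM, values that overlapped mock. The summed level of 3 endodermis markers, of which CASP1 is one, was 204.6 to 242.6 CPM on -P, 128.0 to 173.2 CPM on nanoP and 142.5 to 171.8 CPM on mock, and its part in these differences was not tested. SCR, the endodermal identity factor among them, was at 20.49 to 27.21 CPM on -P and at 27.61 to 29.65 CPM on nanoP and did not pass. Of 13 suberin genes, 3 were lower and 1 higher (median -0.25), and the 3 lower calls were lost when scaled by total reads. None was lower without -P replicate 2 or nanoP replicate 3, 1 was without -P replicate 3, and 6 were without nanoP replicate 2. Of 15 root hair genes, 4 were lower and 1 higher (median -0.93). XTH14, a wall enzyme of root hairs, had 115.8, 43.74 and 98.3 CPM on -P and 14.43, 38.09 and 34 CPM on nanoP, without overlap but with a wide spread in both groups. Each of the 5 root hair calls was lost when a library was left out, and leaving out 1 library in turn gave 0 to 8 lower genes. The summed level of 4 epidermis markers was 34.14 to 71.67 CPM on -P and 18.88 to 45.55 CPM on nanoP, and the groups overlapped.

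Of 14 sugar genes tested among 17 listed, 5 were lower, among them the sucrose synthase SUS4 by 1.85. SUC2, the phloem sucrose loader, had a log2 difference of 0.31 (adjusted p = 0.118). Of 6 flavonoid genes tested among 12 listed, 3 were lower and none higher, with a median log2 difference of -1.37. The lower flavonoid calls fell to 1 without -P replicate 1, nanoP replicate 1 or nanoP replicate 2. Of 11 hypoxia genes 2 were lower, with none without -P replicate 1 and 1 whichever nanoP library was left out. Of 14 heat shock genes 2 were lower and none higher, though their median log2 difference was 0.43. The lower genes numbered 1 without -P replicate 1, -P replicate 3, nanoP replicate 1 or nanoP replicate 3. Calcium genes split, with 2 of 9 higher and 3 lower. TCH3, a calmodulin-like protein, fell by 1.47 from 1262, 1092 and 902.5 CPM to 389.5, 361.1 and 427.5 CPM, and the vacuolar exchanger CAX1 rose by 0.66. Abscisic acid genes had 1 higher and 1 lower of 9 tested among 13 listed, and triterpene genes 1 higher of 6. Iron storage genes had 1 higher and 1 lower of 8 tested among 10 listed, and aluminium and malate genes 1 lower of 8. The counts of these last lists lie near the shares over all genes, 15.2% higher and 15.1% lower. No iron storage gene was called without nanoP replicate 3. Leaving out 1 library in turn gave no lower aluminium and malate gene, except without nanoP replicate 2.

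**Figure D2:**
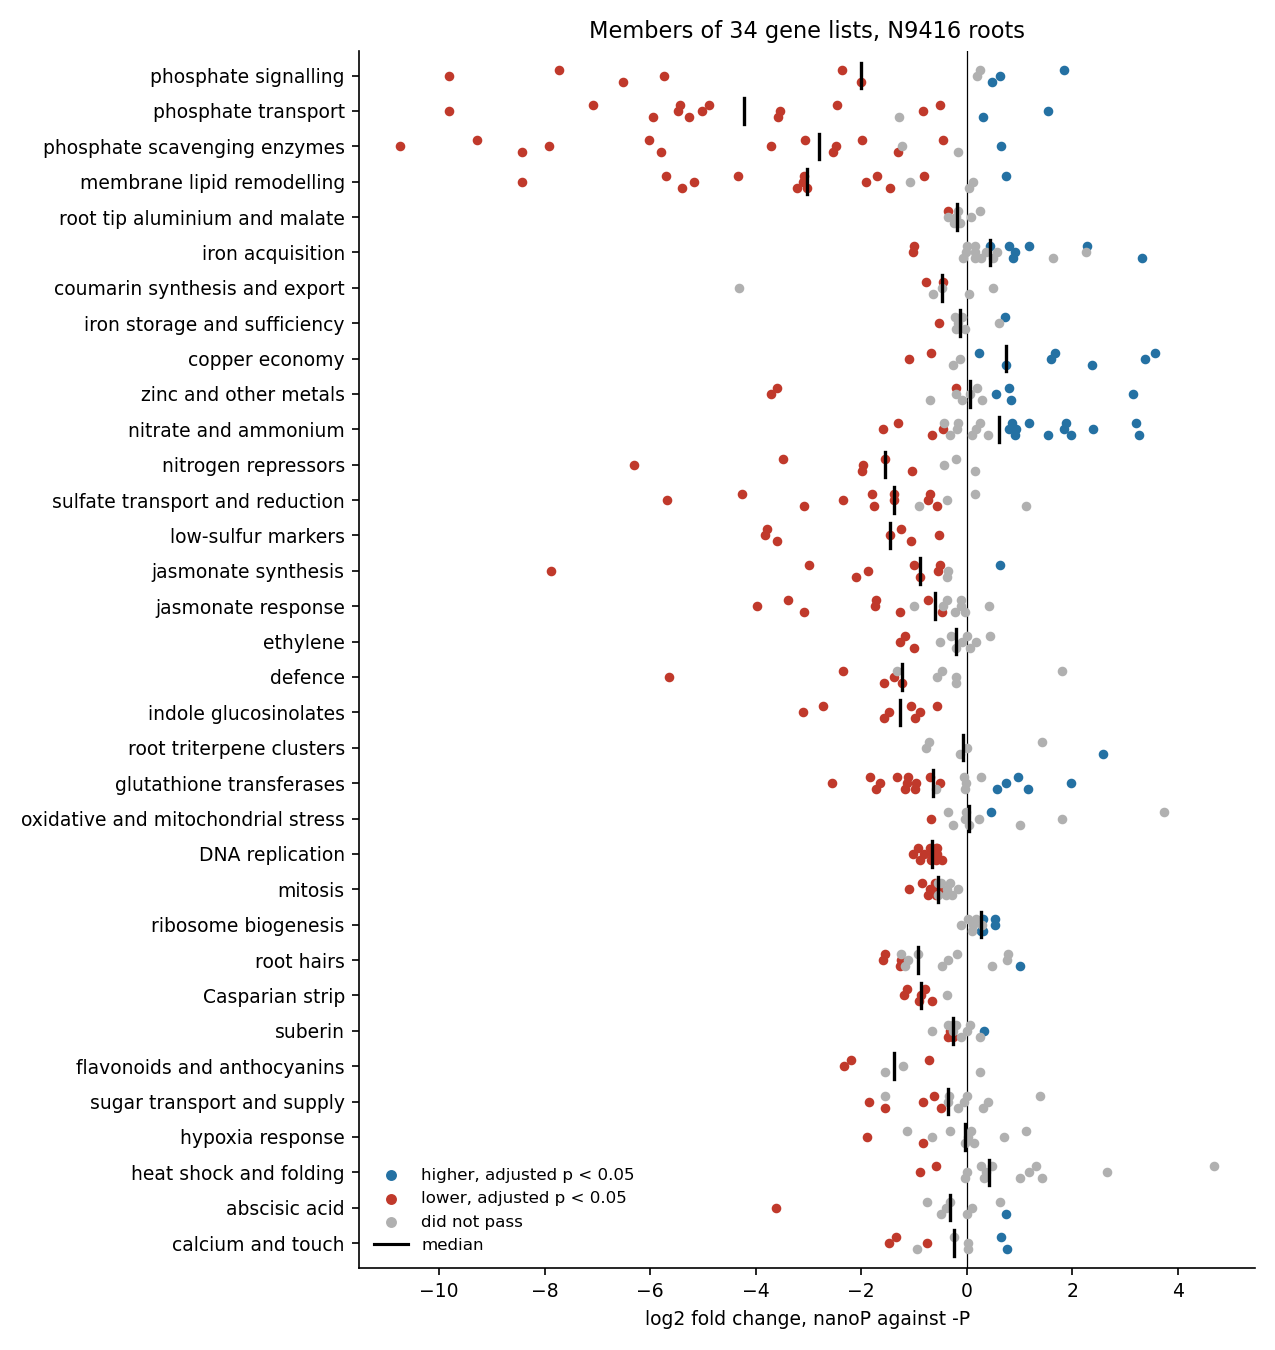
Log2 difference nanoP minus -P of each tested member of the 34 gene lists, 1 row per list, with higher genes in blue, lower genes in red, genes that did not pass in grey and the list median as a black line. Genes without a read in a group, such as PAP23 and PHT1;5, are drawn at their fitted value, which depends on the prior count. The 4 phosphate lists reach furthest to the left, and copper (0.75) and nitrate and ammonium (0.6) have the highest medians.

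The 10 genes that rose most and the 10 that fell most were taken from genes with a symbol, no overlap and at least 10 CPM in the higher group. Genes without a symbol were not ranked. Those ranked genes that lay outside the lists included the following. AGP30, an arabinogalactan protein of roots, rose by 3.77 from 0.4639, 0.7244 and 2.055 CPM to 20.05, 18.96 and 5.77 CPM. CKX3, a cytokinin-degrading oxidase, rose by 2.65, and ACR6, an ACT-domain protein, by 2.53 from 4.329, 4.527 and 4.192 CPM to 28.55, 25.01 and 22.12 CPM. UMAMIT17, a transporter of the nodulin MtN21 family, rose by 2.53 from 29.76, 29.7 and 33.37 CPM to 145.7, 181.4 and 210.3 CPM. Among those that fell, PLL3, annotated as pol-like, went from 52.19, 33.69 and 55.64 CPM to 0.156, 0.1656 and 0.2061 CPM. PGIP2, a polygalacturonase inhibitor, went from 11.91, 8.512 and 10.44 CPM to 0.078, 0.1656 and 0.0687 CPM. The falls of the myrosinase genes TGG1 and TGG2 rested on a subset of the -P libraries, since TGG1 stood at 67.34, 55.33 and 1.069 CPM on -P and TGG2 at 44.22, 29.79 and 1.48 CPM.

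Untreated roots on full medium (mock) gave the reference for both media. Against mock, 1600 genes (8.10%) were higher and 1241 (6.28%) lower on nanoP, while 4112 (20.8%) were higher and 3410 (17.3%) lower on -P, 14.4% and 38.1% of genes in all. The majority of higher genes on nanoP turned to 1325 higher and 1366 lower under scaling by total reads, to 1088 and 1159 with only the libraries of the groups compared, and to 513 and 575 in the fit of all 66 libraries. Both comparisons use the same mock libraries, so their values are given side by side only. Correlations of log2 CPM with mock libraries were 0.9836 to 0.988 for nanoP and 0.97 to 0.9766 for -P. Of the 4 phosphate lists, 1 signalling, 2 transport, 4 scavenging and 2 lipid genes were higher on nanoP than on mock, against 6, 13, 14 and 13 on -P. The lower calls against mock numbered 2, 4, 0 and 1 on nanoP. In the jasmonate lists, 6 of 11 synthesis genes and 10 of 16 response genes were higher on nanoP than on mock, against 9 and 15 on -P. In DNA replication, 1 of 12 genes was higher than on mock with nanoP and 11 with -P. For sulfate, none of 15 genes was higher than on mock with nanoP and 9 were with -P.

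**Figure D3:**
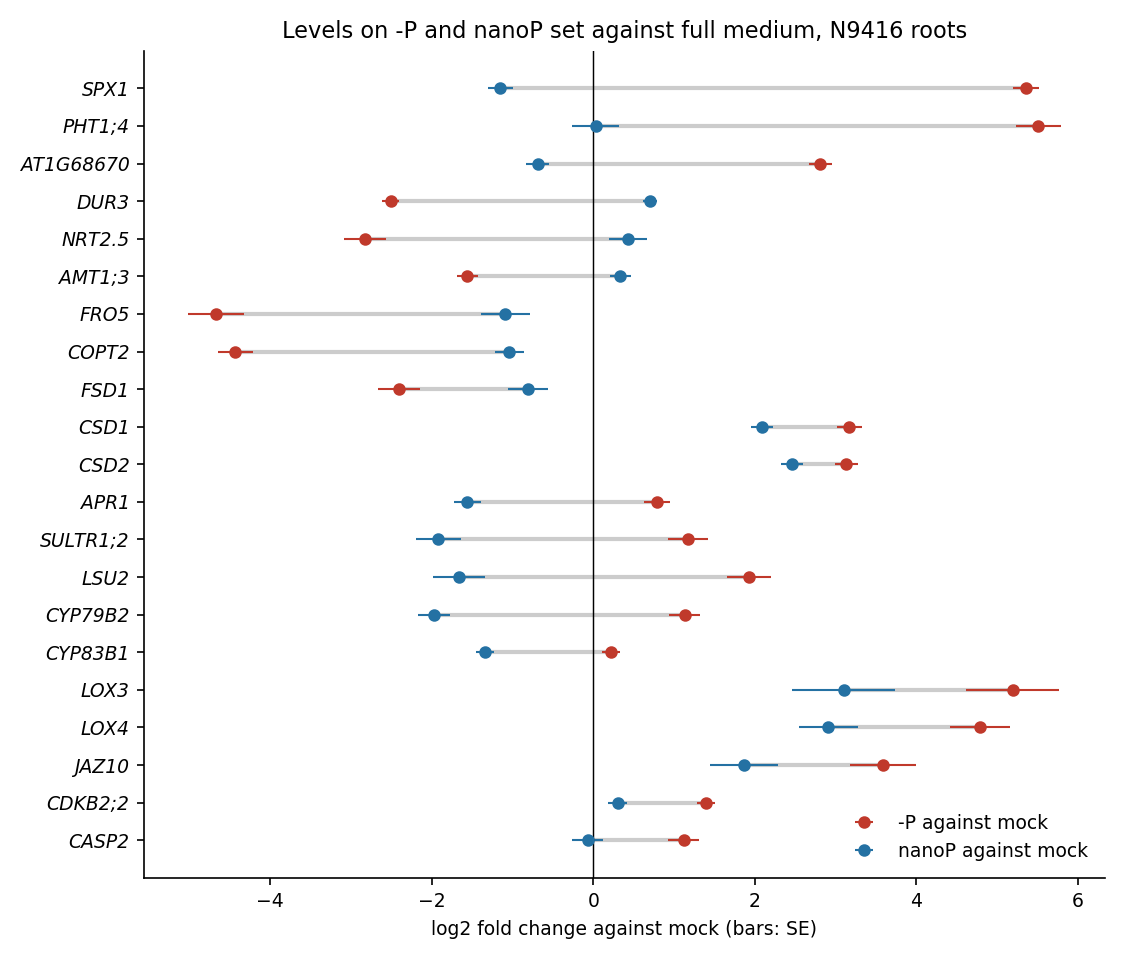
Log2 difference from mock of -P and of nanoP roots for 21 genes, with the standard error as bars. For SPX1 and AT1G68670 the -P points lie far above 0 and the nanoP points near it, for SULTR1;2, APR1, LSU2, CYP79B2 and CYP83B1 the nanoP points lie below 0 and the -P points above, and for LOX3, LOX4, CSD1 and CSD2 both lie above 0.

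The same pair of media was also compared under thorium, in 6 other N9416 libraries. There 4304 genes (21.8%) were higher and 4541 (23.0%) lower on nanoP+Th than on -P+Th, together 44.8% of genes. Of the genes higher without thorium, 1604 were higher with it too (53.6% of the calls without and 37.3% of the calls with thorium), and 1588 were lower in both (53.3% and 35.0%). A further 193 genes were higher without and lower with thorium, and 227 the reverse. The log2 differences correlated across 19762 genes with r = 0.509, a description over genes that are not independent. The effect of nanoP itself differed with thorium for 4022 genes (20.4%), 2044 upward (10.3%) and 1978 downward (10%).

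Much of the phosphate programme fell on nanoP with thorium as well. Lower were 6 of 11 signalling, 12 of 16 transport, 12 of 16 scavenging and 14 of 17 lipid genes, against 23.0% of all genes. Higher were 5 signalling, 3 transport, 0 scavenging and 1 lipid genes, against 21.8% of all genes. The difference between both effects passed for 4 signalling genes, 5 transport genes and 3 lipid genes, all upward, and for 1 scavenging gene each way; upward means a smaller fall or a larger rise under thorium. SPX1 fell by 4.59 with thorium against 6.51 without (difference 1.91, adjusted p = 6.8e-06), and PHO1 turned from a log2 difference of -0.50 to 1.40 (difference 1.91, SE 0.12, adjusted p = 6.5e-08). PHO1 means were 451.5 CPM on -P+Th and 1195 CPM on nanoP+Th. PHT1;3 fell by 5.26 without thorium and was near its floor in both thorium groups, at means of 0.4899 and 0.8695 CPM (difference 6.04, SE 0.93, adjusted p = 2.4e-04). IPS1 and PS2 fell by 9.76 and 8.33 with thorium.

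Sulfur genes often turned direction under thorium. With it, 7 of 15 sulfate genes were higher and 3 lower on nanoP, against 0 and 11 without it. The difference was upward for 12 of the 15 and downward for none. Over all genes, 21.8% were higher and 23.0% lower with thorium, and the difference was upward for 10.3% and downward for 10%. The count of 3 lower sulfate genes does not exceed its share over all genes. APR2 fell by 0.70 without thorium and rose by 2.11 with it, from a mean of 48.18 CPM to 208.5 CPM (difference 2.82). APR1 and APR3 turned likewise, with log2 differences of 0.49 and 1.55 under thorium and differences of 2.83 and 2.92 between effects. SDI1 fell by 3.78 without thorium and rose by 1.37 with it (difference 5.15). Suberin genes, of which 1 was higher without thorium, had 10 of 13 higher with it, and 11 of 13 differed upward. GPAT5, an acyltransferase of suberin, had log2 differences of -0.25 without and 0.93 with thorium.

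In other lists, some genes moved further in the same direction under thorium. Their counts are to be read beside the shares over all genes with thorium, 21.8% higher and 23.0% lower. For the difference between effects these shares are 10.3% upward and 10% downward, together 20.4%. The difference between effects passed for 8 of 11 copper genes. It was upward for FRO4, FRO5, COPT2, ZIP2 and FSD1, which rose without thorium, and downward for CSD1, CSD2 and the chaperone CCS. As without thorium, 7 copper genes were higher. FRO5 went from a mean of 1.066 CPM on -P+Th to 581.5 CPM on nanoP+Th, a log2 difference of 9.01 against 3.58 without thorium (difference 5.43). COPT2 rose by 7.02 against 3.39. Of the jasmonate genes, 10 of 11 synthesis and 13 of 16 response genes were lower with thorium. The difference between effects passed downward for 4 synthesis and 6 response genes and upward for 1 response gene. LOX3 was at -5.54 against -2.09, and JAZ10 had a difference of -2.36. Root hair genes, of which 4 were lower without thorium, had 14 of 15 lower with it, and the difference passed downward for 6. ALMT1, a malate channel of the root tip, was at or below 0.1656 CPM in all 6 libraries without thorium, and fell from a mean of 33.31 CPM on -P+Th to 0.2041 CPM on nanoP+Th.

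Other genotypes were compared in a fit of all 66 libraries with 20839 genes. In it the effect of nanoP passed for 1233 genes higher (5.92%) and 1745 lower (8.37%) in N9416, for 825 higher (3.96%) and 1042 lower (5.00%) in Col-0 and for 2109 higher (10.1%) and 2891 lower (13.9%) in N8508. These calls made up 14.3%, 8.96% and 24.0% of genes. Genes higher in both N9416 and Col-0 numbered 328 (26.6% of N9416 and 39.8% of Col-0 calls), and 597 were lower in both (34.2% and 57.3%). With N8508 the shared calls were 380 higher (30.8% and 18%) and 868 lower (49.7% and 30%). Log2 differences correlated across genes with r = 0.474 for Col-0 and 0.396 for N8508. N9416 and N8508 libraries come from a later series of library numbers than those of Col-0, so genotype and series cannot be told apart for Col-0, while N8508 belongs to the same series.

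The effect in N9416 differed from that in Col-0 for 579 genes (2.78%), 200 upward (0.960%) and 379 downward (1.82%). Nitrogen genes were among them, with 8 of 24 nitrate and ammonium genes differing downward and 2 upward, and 5 of 9 repressor genes upward. DUR3 levels on nanoP overlapped, at 1461 to 1901 CPM in Col-0 and 1400 to 1589 CPM in N9416, with all libraries scaled together. On -P they were 19.18 to 24.69 CPM in Col-0 and 139.7 to 177.9 CPM in N9416, with no overlap, so the rise was 6.27 in Col-0 and the difference between lines was -3.08 (adjusted p = 2.6e-08). NRT2.5 followed the same order, at 1.086 to 8.618 CPM on -P in Col-0 against 58.54 to 88.17 CPM in N9416 (difference -4.25, adjusted p = 3.6e-05). GDH3 was at 0.6517 to 1.149 CPM on -P in Col-0 and 31.72 to 35.07 CPM in N9416 (difference -5.04). HRS1 and BT1, the repressors, fell less in N9416, with differences of 1.74 and 2.73.

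Among phosphate genes, none of 11 signalling genes passed the test of a difference from Col-0 in either direction. Upward were 1 of 16 transport, 2 of 16 scavenging and 1 of 17 lipid genes, against 0.960% of all genes. Downward were 2 of 16 transport genes, against 1.82% of all genes. PHT1;4, which fell by 6.89 in Col-0, fell less in N9416 (difference 1.40, adjusted p = 0.00486). NAS1 differed upward, with 16.81 to 26.88 CPM on -P in Col-0 and 0.7542 to 1.872 CPM on -P in N9416 (difference 3.80, adjusted p = 1.6e-04). Of 26 iron acquisition genes tested in this fit, 11 were higher and 2 lower on nanoP in Col-0, and 5 higher and 1 lower in N9416. Over all genes 3.96% were higher and 5.00% lower in Col-0, and 5.92% higher and 8.37% lower in N9416. The difference between these lines was upward for 2 genes and downward for 2, and did not pass for 22. Its value was -2.78 for BHLH39 and -3.59 for BHLH101, a pair of factors that work with FIT.

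Against N8508 the differences were more numerous, 1163 upward (5.58%) and 864 downward (4.15%), which is 9.73% of genes, and they included the phosphate programme. The difference was downward, toward a larger fall in N9416, for 7 of 11 signalling genes, 11 of 16 transport genes, 5 of 16 scavenging and 7 of 17 lipid genes, and upward for 1 gene in each of the latter 3 lists. SPX1 stood at 409.1 to 510.1 CPM on nanoP in N8508 and at 9.604 to 11.34 CPM in N9416, while on -P it stood at 1291 to 1686 CPM and 935.3 to 1044 CPM (difference of effects -4.79). IPS1 stood at 196.8 to 203.2 CPM on nanoP in N8508 and at 0.0706 to 1.272 CPM in N9416 (difference -7.17, adjusted p = 1.3e-10). PS2 was at 208.0 to 269.2 CPM on nanoP in N8508 and at 2.235 to 7.121 CPM in N9416. Suberin genes differed upward for 11 of 13 genes, and nitrogen repressors downward for 6 of 9. DUR3 reached 48.98 to 60.7 CPM on nanoP in N8508, far below both other lines.

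**Figure D4:**
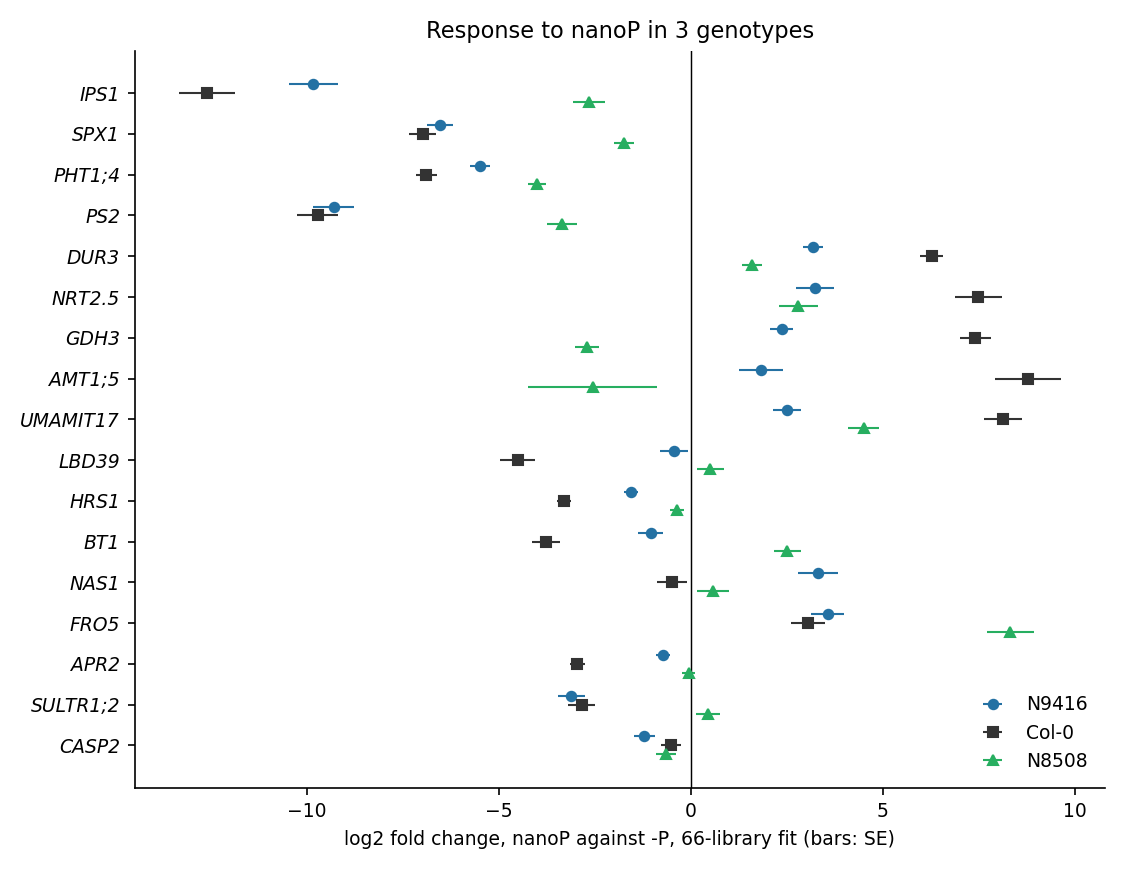
Log2 difference of nanoP minus -P in N9416 (circles), Col-0 (squares) and N8508 (triangles) for 17 genes from the fit of all 66 libraries, with the standard error as bars. N8508 lies closest to 0 for IPS1, SPX1 and PS2, and Col-0 lies furthest from 0 for DUR3, NRT2.5, GDH3, AMT1;5 and UMAMIT17.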

How the data were processed

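RNA-seq of total root RNA was analysed from deposited tables of 66 libraries. The kits, per the labels, were Spectrum Plant Total RNA for extraction and NEBNext Ultra II Directional for libraries. Trimmomatic, Salmon 1.3.0 and TAIR10 are named in the submitters' processing notes. The deposited expected counts are the authors' estimated read counts per model, not normalized, and the deposited TPM values of the authors were not used in tests. Salmon's bias and strand settings are not given in the sources used here, so reads of a gene and of an antisense partner cannot be told apart. Models are coding sequences (99.99% of lengths are multiples of 3).

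Estimated counts were summed per gene (27313 genes) and rounded. Symbols came from TAIR10.1 (97.6% matched); 17 list members without one are named by locus. edgeR 4.0.16 in R 4.3.3 fitted the 18 N9416 libraries (19762 genes, TMM, filterByExpr by group), and all 66 libraries (20839 genes) for differences between genotypes. The threshold was an adjusted p of 0.05. The SE is the absolute log2 difference divided by the square root of F. CPM use each fit's scaling. Genes without a read in a group were bounded with a floor of 3 reads over the group, which covers counting error only. The script was tested on simulated data.

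The members and the 34 lists (450 genes) were chosen with earlier results of these data known, so list counts are descriptions. Named genes are up to 5 called members per list with at least 5 CPM and the largest change, the 10 that rose and 10 that fell most with at least 10 CPM and no overlap, the 4 highest and 4 lowest of each difference between effects, and IPS1, SPX1, PHT1;4, PHO1, PHO2, IRT1, FER1 and SUC2; further list members were named after their values were seen. Alternatives were DESeq2 1.42.0, scaling by total reads, no filter, effective lengths, other sets of libraries and leaving out each library.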

Additional observations from a re-analysis of the deposited data

Results flagged for a closer look

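The effect of nanoP in N9416 differed between roots with and without thorium for 4022 genes. Those named by size were PHT1;3 (log2 difference between effects 6.04), FRO5 (5.43), XTH7 (5.30) and SDI1 (5.15) upward, and ALMT1 (-7.55), the SKU5-similar gene sks15 (-5.84), the thalianol pathway gene THAD (-5.36) and AGP30 (-5.33) downward. PHO1 differed by 1.91. Here and for the genotypes below, only genes with a symbol and at least 10 CPM in the highest group were ranked. The ALMT1 difference no longer passed without nanoP replicate 1 or 2.

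The effect in N9416 differed from that in Col-0 for 579 genes. Upward were SULTR3;5 (7.51), LBD39 (4.07), PRX52 (3.90) and NAS1 (3.80). Downward were the anion channel gene SLAH1 (-8.61), AMT1;5 (-6.95), UMAMIT17 (-5.62) and GDH3 (-5.04). SLAH1 had no read in Col-0 on -P, so its fitted value depends on the prior count and is no bound. The PRX52 difference was lost without Col-0 -P replicate 1.

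The effect in N9416 differed from that in N8508 for 2027 genes. Upward were the chalcone synthase gene CHS (12.25), UMAMIT9 (8.43), the malic enzyme gene NADP-ME1 (7.08) and UMAMIT19 (5.87). Downward were MRD1 (-9.81), IPS1 (-7.17), PAP23 (-6.45) and PLL3 (-6.33). CHS and MRD1 had no read in an N8508 group and PAP23 none in N9416 on nanoP, so these fitted values depend on the prior count. The CHS difference was lost without N9416 nanoP replicate 3. NADP-ME1 rose in N9416 from 0.6185, 0.4528 and 0.411 CPM to 11.08, 8.199 and 10.37 CPM, a log2 difference of 4.29. Its levels were 0.705 to 1.868 CPM on -P and 0.1486 to 0.1579 CPM on nanoP in N8508. Groups held 3 libraries, too few for a test of a single library standing apart.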

How the results depend on the processing

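No gene picked by the naming rule that passed changed direction under any alternative that was run. Further genes named in the text were not followed singly, though no called gene was called in the opposite direction in any alternative. Among picked genes that did not pass for nanoP against -P, the values of ALMT1 (-0.16 to 0.87), THAD (-0.17 to 0.21) and CHS (-0.44 to 1.24) crossed 0 when a library was left out. In the fit of all 66 libraries, whose spread is wider, called genes numbered 2978 for nanoP against -P, 5653 for nanoP+Th against -P+Th, 1733 for the difference between these effects, 1088 for nanoP against mock and 4157 for -P against mock. With only the libraries of the groups compared, 4000 genes differed between N9416 and N8508. Leaving out 1 library in turn gave 4420 to 5803 calls for nanoP against -P, 7449 to 8265 with thorium, 3139 to 4110 for the thorium difference, 1709 to 2696 for nanoP against mock (lowest without N9416 mock replicate 2), 5894 to 6468 for -P against mock, 369 to 652 for the difference from Col-0 (lowest without N9416 -P replicate 1) and 1603 to 1935 for that from N8508. DESeq2 called 5960 genes for nanoP against -P, 5648 of them among the 5971 of edgeR. Among single genes picked by the naming rule, 57 results outside the leave-out fits lost significance, 1 gained it and 1028 kept their side. When a library was left out, 91 lost it and 1163 kept it. Scaling by total reads also moved the share of higher calls with thorium to 63.7% (from 48.7%), for -P against mock to 32.6% (from 54.7%) and for the difference from Col-0 to 48.3% (from 34.5%). Calls near the threshold, among them AHA7, LRX1, RSL2, XTH14, EXPA18, GPAT5, ASFT, KCS20, ABCG20, CDC20.1 and NUC1, did not hold in every fit; the cause was not tested. No paired analysis was possible because the labels give no replicate numbers and those used here only follow accession order.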
